A study of Macaca fascicularis with 64 samples.

Results

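The genes HHEX, EHF, ANK3, CSGALNACT1, SLC10A4 and PROCR were followed in single islet cells of cynomolgus monkeys as transcripts associated with the somatostatin-producing δ-cell. They are 6 of the 21041 macaque genes counted, and they were listed because earlier analyses of these cells had found them higher in δ-cells. Their level in δ-cells against the other types is therefore given as a description without a test, and tests are kept for comparisons that the list did not rest on (age, sex, and α-cells against β-cells). The cells came from 16 non-diabetic monkeys in 4 groups of 4, namely young females, young males, old females and old males, with young monkeys aged 4 to 6 years and old ones 18 to 21 years. Islets were taken from the tail region of the pancreas, 1 monkey was processed per day, and single cells were picked by hand into 4 barcoded libraries per monkey.

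δ-cells are a minor islet population that secretes somatostatin (SST), a paracrine brake on both insulin and glucagon release. HHEX is a homeobox transcription factor that maintains the δ-cell state and SST expression, and EHF is an ETS-family factor best known from epithelia. ANK3 encodes ankyrin-G, which ties membrane proteins to the spectrin skeleton, CSGALNACT1 encodes an enzyme that starts chondroitin sulphate chains, SLC10A4 is an orphan transporter of the bile acid carrier family found on synaptic vesicles, and PROCR is the endothelial protein C receptor, also used as a marker of progenitor-like cells in several tissues.

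Each cell with over 800 genes and over 10000 UMIs (unique molecular identifiers, each counting 1 captured transcript) was given the type of its highest hormone among GCG (α), INS (β), SST (δ) and PPY (PP). Of 6141 cell barcodes 5908 were retained, with 4503 α-cells, 1219 β-cells, 112 δ-cells and 74 PP-cells. The δ-cells came from 15 monkeys, 70 of them from young and 42 from old animals, and 11 monkeys (7 young and 4 old) held at least 5. Of the 74 PP-cells 33 came from old female 2, so means over all PP-cells lean on that animal. In 58 of the 74 the top hormone was at least 2 times the second. Levels are counts per 1000000 macaque UMIs (CPM) in each cell, averaged over the cells of a monkey, and means ± SD are over monkeys with at least 5 cells of the type. Median depth was 43776 UMIs in δ-cells, 64894 in α-cells, 74425 in β-cells and 45772.5 in PP-cells. The 64 libraries drew on the same 96 barcodes, so a shared barcode marks no shared cell.

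The δ-cell label was checked against further markers. RBP4, the retinol carrier, averaged 7525 CPM over δ-cells and at most 33.3 CPM over any other type, LEPR, the leptin receptor, 395 against at most 19.3 CPM, and GHSR, the ghrelin receptor, 60.6 against at most 0.188 CPM. BCHE was the exception among the listed markers, with 22.6 CPM in δ-cells, 45.3 in α-cells and 77.1 in PP-cells. In 11 of the 112 δ-cells SST was less than 2 times the next hormone, and 9 carried over 1000 CPM of markers of acinar, ductal, endothelial, stellate, immune or Schwann cells. The δ-cell nearest the threshold had 7024 SST UMIs against 6774 of the next hormone and held 40 HHEX, 121 EHF and 64 ANK3 UMIs. The nearest cell outside it, typed as α, had 1514 against 1636 and held 0 HHEX, 1 EHF and 3 ANK3 UMIs.

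HHEX was found mostly in δ-cells. In 11 monkeys its level in δ-cells was lowest at 60.9 CPM, had a median of 328 and was highest at 844, with a mean of 374 ± 202 CPM (SD, n = 11), against 2.12 ± 1.67 CPM in their α-, β- and PP-cells combined. No monkey's δ-cells came as low as the highest α-cells (6.21 CPM) or β-cells (13.6 CPM) of any monkey. δ-cells made up 1.90% of all retained cells and held 74.3% of all HHEX UMIs. A HHEX UMI was found in 78.6% of δ-cells (95% exact Clopper-Pearson interval, 69.8 to 85.8%), in 3.71% of α-cells (3.18 to 4.30%), in 2.63% of β-cells and in 5.41% of PP-cells. With each cell thinned to 10000 UMIs the shares were 67.9% in δ-cells, 1.03% in α-cells and 0.742% in β-cells. The intervals cover counting error only. The 3 low levels, 1.86 ± 2.12 CPM in α-cells, 1.57 ± 3.41 in β-cells and 0.476 ± 1.17 in PP-cells, overlapped and stood in no order beyond their spread. Within monkeys α-cells were above β-cells in 12 of 16, and β-cells above PP-cells in 5 of 6. These counts rest on few UMIs, with 50 HHEX UMIs in all β-cells and 4 in all PP-cells.

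EHF was also highest in δ-cells but was not restricted to them. Its levels in δ-cells ran from 86.8 to 394 CPM with a median of 309, giving 269 ± 98.6 CPM (SD, n = 11). PP-cells followed with 112 ± 118 CPM (n = 6 monkeys), then α-cells with 32.9 ± 9.61 CPM and β-cells with 6.62 ± 4.68 CPM (n = 16 each). δ-cells and PP-cells overlapped, and δ-cells were higher in 4 of the 5 monkeys that had enough cells of both. PP-cells also overlapped with α-cells, with the higher level in 4 of 6 monkeys. In the 11 monkeys δ-cells stood 10.1 times above all other endocrine cells combined, and because α-cells were so numerous δ-cells held only 12.1% of EHF UMIs. The share of cells with a UMI was 67.9% in δ-cells, 63.5% in PP-cells, 35.6% in α-cells and 20.3% in β-cells, and 52.7, 36.5, 16.5 and 4.53% after thinning.

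ANK3 reached 433 ± 199 CPM in δ-cells (SD, n = 11), with a lowest monkey at 145, a median of 437 and a highest at 802 CPM. PP-cells had 54.8 ± 52.5 CPM (n = 6), β-cells 37.4 ± 27.9 and α-cells 10.3 ± 6.42 CPM (n = 16 each). The ranges of δ-cells and PP-cells met only at their edges, where the highest PP-cell value was 145.4 CPM against the lowest δ-cell value of 144.95, and δ-cells were higher in all 5 monkeys compared. The order of PP-cells and β-cells was unsettled, since PP-cells were higher in 2 of 6 monkeys. ANK3 UMIs were present in 83.9% of δ-cells and 36.7% of β-cells (73.2 and 17.4% after thinning), against 15.1% of α-cells (4.79%).

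CSGALNACT1 and SLC10A4 were low outside δ-cells. CSGALNACT1 averaged 199 ± 223 CPM in δ-cells (SD, n = 11), and its monkeys were spread from 5.71 to 672 CPM around a median of 89.3, the widest spread of the 6 genes relative to its mean. In the other endocrine cells it was at 1.22 ± 1.76 CPM, and the β-cells of old female 2, at 10.6 CPM, lay above the δ-cells of young female 2, the lowest at 5.71. SLC10A4 averaged 109 ± 62.3 CPM in δ-cells, from 14.1 to 218 CPM with a median of 90.1, and 0.464 ± 0.398 CPM elsewhere, and the lowest δ-cell value lay above the highest of any other type, 2.72 CPM. δ-cells held 71.2% of CSGALNACT1 UMIs and 84.3% of SLC10A4 UMIs. Yet a CSGALNACT1 UMI was found in only 49.1% of δ-cells (interval 39.5 to 58.7%) and a SLC10A4 UMI in 40.2% (31.0 to 49.9%), and at equal depth in 36.6 and 34.8%. In α-cells the shares at equal depth were 0.672 and 0.336%.

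PROCR showed the smallest contrast. Its level was 78.1 ± 51.3 CPM in δ-cells (SD, n = 11; lowest 15.4, median 59.3, highest 152), 23.1 ± 28.4 CPM in PP-cells (n = 6), 13.8 ± 5.52 CPM in α-cells and 4.05 ± 3.99 CPM in β-cells (n = 16 each). The δ-cell range overlapped with those of PP-, α- and β-cells, although within each monkey δ-cells exceeded the remaining endocrine cells, by 6.47 times on the means. δ-cells held 6.91% of PROCR UMIs. A PROCR UMI was found in 39.3% of δ-cells and 21.3% of α-cells, and in 27.7 and 8.47% after thinning, against 2.31% in β-cells.

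**Figure D1:**
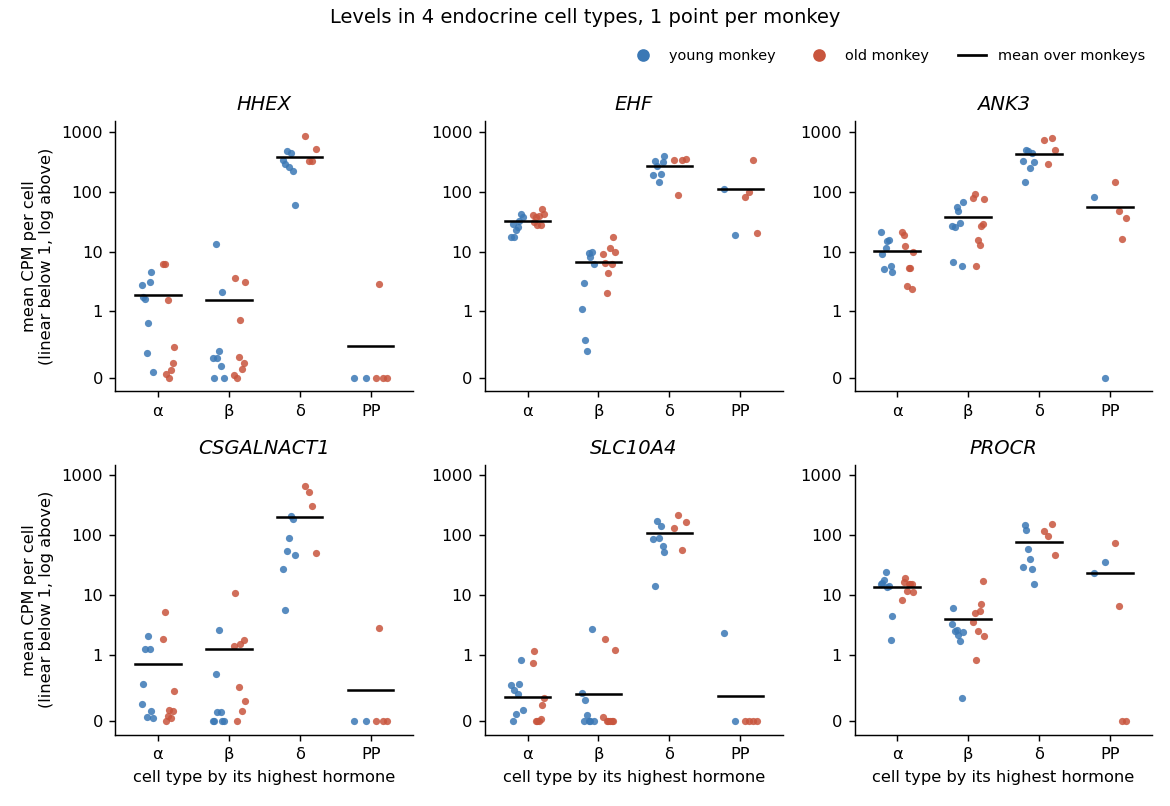
Mean CPM per cell of the 6 genes (vertical axis, linear below 1 and logarithmic above) in α-, β-, δ- and PP-cells, with 1 point per monkey holding at least 5 cells of the type, young in blue and old in red, and the mean over monkeys as a black line. HHEX and SLC10A4 in δ-cells lie above every point of the other types, whereas EHF, ANK3 and PROCR have a second tier of values between 4.05 and 112 CPM on average elsewhere.

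The low UMI numbers outside δ-cells were compared between libraries with and without a δ-cell. SST itself had UMIs in 81.9% of α-cells, and in the 1361 α-cells of the 19 libraries without a δ-cell it was at 83.7 CPM, against 933 CPM in the 3142 α-cells of the 45 libraries with one. HHEX moved with it, at 0.311 against 2.90 CPM, and SLC10A4 likewise, at 0.0301 against 0.471 CPM. In these α-cells EHF did not, with 35.0 CPM without and 32.4 CPM with a δ-cell in the library. Nor did PROCR with 14.6 and 15.7 CPM or ANK3 with 9.35 and 12.2 CPM. CSGALNACT1 lay between, at 0.240 and 0.866 CPM. In β-cells, however, ANK3 was at 24.8 CPM without and 50.9 CPM with a δ-cell in the library. EHF there was at 5.07 and 7.32 CPM and PROCR at 4.92 and 3.86 CPM.

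The comparison was repeated within animals, since 9 monkeys had libraries of both sorts. Among their α-cells SST was higher in the libraries with a δ-cell in 9 of 9 monkeys, HHEX in 7 (lower in 1, with no UMI of either sort in 1) and SLC10A4 in 6 (no UMI in 3). HHEX totalled 347 UMIs in 1401 α-cells of libraries with a δ-cell and 29 UMIs in 1018 α-cells of libraries without, and SLC10A4 30 and 3 UMIs. Of the 347 UMIs 196 came from old female 1, 194 of its UMIs in α-cells being in 1 cell with endothelial and stellate markers, and 27 of the 29 came from young male 3. Without old female 1 the totals were 151 and 28 UMIs, and 2.09 against 0.321 CPM over all libraries. Without young male 3 they were 275 and 2 UMIs, and 2.74 against 0.0419 CPM. Of the 30 SLC10A4 UMIs 19 came from young male 3, and the 3 in libraries without a δ-cell all came from young male 4. The other monkeys in which SLC10A4 was higher had 1 to 4 UMIs each in the libraries with a δ-cell. EHF, ANK3 and PROCR were each higher in 6 of 9 monkeys and CSGALNACT1 in 4 of 9. The cause of the differences between libraries was not tested.

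**Figure D2:**
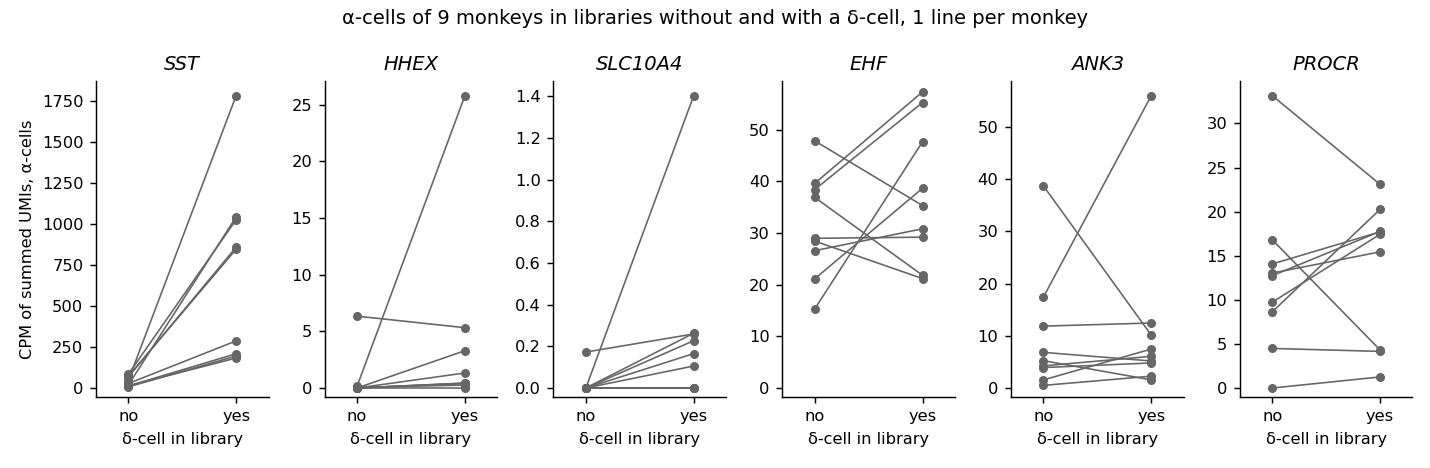
CPM of summed UMIs in α-cells (vertical axis, linear, scaled per gene) of the 9 monkeys that had libraries without and with a δ-cell (horizontal axis), 1 line per monkey. SST rises in 9 of 9 lines and HHEX in 7, while EHF, ANK3 and PROCR rise in 6 and fall in 3.

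Counts were also set against those of SST. δ-cells held 4.56 HHEX UMIs per 1000 SST UMIs, α-cells 3.13, PP-cells 1.26 and β-cells 1.00. For SLC10A4 the values were 1.44 in δ-cells, 0.499 in α-cells and 0.301 in β-cells, and for CSGALNACT1 1.85, 1.00 and 2.51. EHF had 3.51 UMIs per 1000 SST UMIs in δ-cells but 49.6 in α-cells and 124 in PP-cells. PROCR had 0.873 in δ-cells and 22.9 in α-cells, and ANK3 5.28 in δ-cells and 85.8 in β-cells.

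A few cells outside the δ type carried HHEX in quantity. Of 5796 such cells 21 had at least 5 HHEX UMIs, of which 19 were typed α and 2 β, and the 19 held 74.6% of all HHEX UMIs of α-cells. SST was at least 0.1 times the top hormone in 5 of the 21, against 16 of the 5593 cells without HHEX (0.286%). A further 7 carried over 1000 CPM of markers of non-endocrine cells, led by endothelial genes in 4 and by immune genes in 3, against 3.88% of the cells without HHEX. The highest, an α-typed cell of old female 1 with 194 HHEX UMIs, had 1955 CPM of endothelial and 1402 CPM of stellate markers and 83.8 CPM of SST. Without the cells over 1000 CPM of such markers, HHEX in α-cells went from 2.10 to 1.24 CPM of summed UMIs.

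EHF, ANK3 and PROCR were concentrated in a minority of the α- and β-cells. Cells with at least 5 EHF UMIs were 632 of the 4503 α-cells (14.0%), came from all 16 monkeys and held 85.4% of the EHF UMIs of the type. For PROCR, 317 α-cells (7.04%, 16 monkeys) held 80.7% of the UMIs. For ANK3, 217 β-cells (17.8%, 16 monkeys) held 90.1%, and 148 α-cells (3.29%) held 78.9% in their type. The cells with at least 5 UMIs were also the deeper ones, with a median of 78365 UMIs for EHF-positive α-cells against 60981 for those with none, and 84284 against 62262 for PROCR. The part of depth in these shares was not tested.

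α-cells and β-cells of the same 16 monkeys differed in the 3 genes with a level outside δ-cells. EHF was at 32.9 ± 9.61 CPM in α-cells (lowest 17.5, median 32.3, highest 52.2) and at 6.62 ± 4.68 CPM in β-cells (0.411, 6.39 and 17.7), and was higher in α-cells of 16 of 16 monkeys. PROCR was at 13.8 ± 5.52 CPM in α-cells (1.78, 15.2 and 24.6) and 4.05 ± 3.99 CPM in β-cells (0.353, 2.53 and 17.3), higher in α-cells of 15 monkeys. ANK3 ran the other way, with 10.3 ± 6.42 CPM in α-cells (2.41, 9.34 and 21.5) and 37.4 ± 27.9 CPM in β-cells (5.74, 27.8 and 90.1), higher in β-cells of 13 monkeys. The ranges of the types overlapped for all 3 genes.

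In edgeR's quasi-likelihood test on UMIs summed per monkey and type, with the monkey in the model and Benjamini-Hochberg adjustment over 12137 genes, EHF was higher in α-cells by 2.70 ± 0.26 on the log2 scale (SE, adjusted p = 2.7e-09) and PROCR by 2.22 ± 0.30 (adjusted p = 7.1e-07). ANK3 had a log2 fold change of -1.63 ± 0.32 (SE, edgeR adjusted p = 0.000175), α against β. HHEX, CSGALNACT1 and SLC10A4 did not pass the filter on low counts. All 3 members tested were called, against 46.9% of all genes tested (27.3% higher and 19.6% lower in α-cells), so a call was common in this comparison. Over 25 alternatives the 3 calls and directions held, with log2 fold changes of 2.41 to 2.80 for EHF, 1.89 to 2.41 for PROCR and -1.98 to -1.47 for ANK3 (largest adjusted p 0.00206, ANK3, among edgeR and DESeq2 fits).

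**Figure D3:**
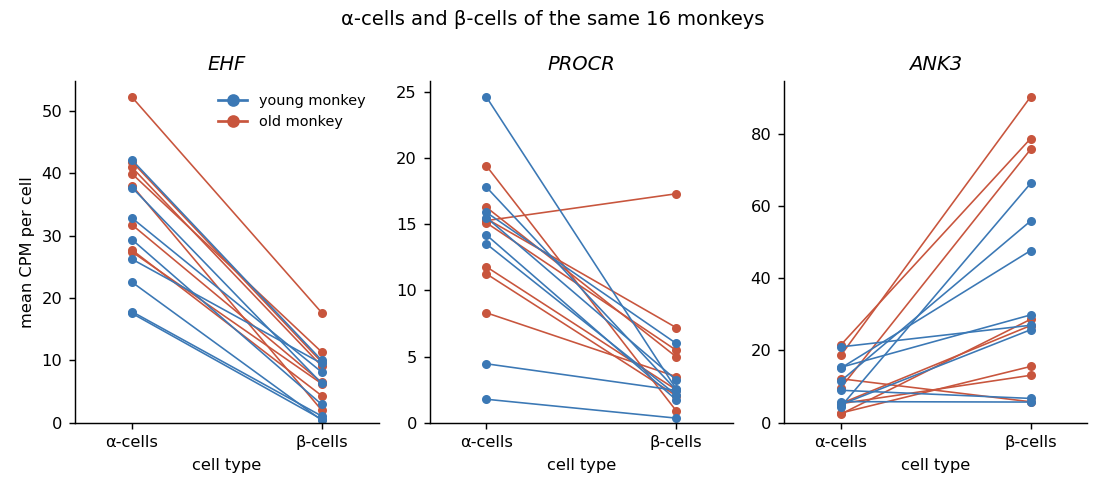
Mean CPM per cell (vertical axis, linear, scaled per gene) of EHF, PROCR and ANK3 in α-cells and β-cells, 1 line per monkey, young in blue and old in red. EHF falls from α- to β-cells in 16 of 16 monkeys and PROCR in 15, and ANK3 rises in 13.

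The relatives of each gene, named partly after their values were seen, were given a place among the types by their mean CPM over all cells of the type, for the genes reaching 10 CPM in any. The share of all genes that is highest in δ-cells was not determined. The numbers of listed genes highest in δ-cells are therefore no result about the lists. Of the ETS factors 7 of 16 reached it, and EHF and ELF2 (85.2 CPM) were highest in δ-cells, while ELF4, ELF3 and ETV1 were highest in PP-cells, at 627, 93.0 and 177 CPM, and ELF1 and GABPA in β-cells. In α-cells against β-cells edgeR called 3 of the 10 ETS factors tested higher (EHF, ELF4 by 1.18 and ELF3 by 1.01 on the log2 scale) and 2 lower (ETS1, -2.74, and ELF1, -1.20), 50% of the list against 46.9% of all genes, with a median of 0.14 beside 0.09.

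In the list of ankyrins, spectrins and their membrane partners 13 of 16 genes reached 10 CPM, and 8 were highest in δ-cells. Beside ANK3 these included ANK2, the ankyrin-B gene, at 145 CPM against 69.4 in α-cells, the spectrin SPTBN1 at 361 against 222 in β-cells, and the adhesion molecule NRCAM at 435 against 315 in β-cells. Between α- and β-cells 6 of the 16 tested were called higher in α-cells and 6 lower (75% of the list against 46.9% of all genes). ANK2 (log2 fold change 1.84) and NFASC (0.80) were on the α side, and ANK1 (-1.53) and SPTBN1 (-1.05) were on the β side with ANK3.

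The chondroitin sulphate list had 10 of 19 genes at 10 CPM, with 4 highest in δ-cells. CSGALNACT2, the paralogue of CSGALNACT1, was at 50.6 CPM in δ-cells and 14.4 in α-cells, and CHSY1, which extends the chain, at 24.3 and 4.90 CPM. XYLT2, which attaches the first sugar of the linkage region, was at 2.18 CPM in δ-cells and 16.4 CPM in α-cells. Between α- and β-cells edgeR called 3 of the 10 genes tested, XYLT2 (log2 fold change 1.71) and B4GALT7 (0.46) higher and UST (-1.44) lower in α-cells, 30% of the list against 46.9% of all genes. Among SLC10 and vesicular transporters 8 of 15 reached 10 CPM and 5 were highest in δ-cells. SLC10A4 was at 113 CPM there and at most 0.346 CPM elsewhere, and SLC10A3 at 17.9 and at most 9.62 CPM. In the protein C system 4 of 14 genes reached 10 CPM and PROCR alone was highest in δ-cells. Its ligand gene PROC did not reach 10 CPM, PROS1, the protein S cofactor, was at 0.925 CPM in δ-cells, F5 at 28.4 CPM and TFPI at 58.3 CPM. Between α- and β-cells 3 of 5 transporters tested were called higher in α-cells, SV2A (3.50), SLC10A5 (3.46) and SLC18A2 (0.86), and none lower (60% against 46.9% of all genes). Of 8 protein C genes tested 3 were called higher (PROCR, PROS1 by 2.09 and F3 by 1.70) and 2 lower (F5, -1.31, and F2RL1, -1.05), 62.5% against 46.9%.

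Of the 24 genes of the δ-cell programme 19 reached 10 CPM and 15 were highest in δ-cells. Between α- and β-cells edgeR called 4 of the 15 tested higher in α-cells and 4 lower (53.3% against 46.9% of all genes), with a median of 0.02. The β side held PDX1 (log2 fold change -5.43), PCSK1 (-5.00), BHLHE41 (-3.52) and CASR (-3.46), and the α side BCHE (2.85), RGS2 (1.43), ISL1 (1.08) and RBP4 (0.58).

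Over 49 profiles (1 per monkey and type with at least 5 cells), the genes most alike to each of the 6 were found by Pearson's r of the mean log2(CPM/10 + 1), among 8084 genes with at least 10 CPM in δ-cells, and ranks leave out the 6 genes themselves and the hormones. HHEX had r = 0.93 with ANK3 and SLC10A4 and 0.92 with CSGALNACT1, but 0.74 with PROCR and 0.73 with EHF. LEPR came first for HHEX (r = 0.93) and for ANK3 (0.92), and RBP4 was also among the 3 most alike to HHEX (0.92) and ANK3 (0.91). The integrin gene ITGA6 was second for HHEX (0.93) and for CSGALNACT1 (0.86). PYGB, brain glycogen phosphorylase, came first for CSGALNACT1 (0.86) and was among the 3 most alike to SLC10A4 (0.90) and ANK3 (0.87), and PCP4, a calmodulin regulator, first for SLC10A4 (0.92), with FGD6 ranked 3 (0.88). AKAP12, a kinase anchoring protein, came first for EHF (0.82) and was at 159 CPM in δ-cells and 103 CPM in PP-cells, the same pair of types that was high in EHF. LEPR (0.78) and DPYSL3 (0.75) followed. PROCR was most alike to an unnamed gene, ENSMFAG00000033650 (0.82), to the potassium channel gene KCNT2 (0.80) and to TPPP3 (0.78). The profiles share animals and libraries, and 11 of the 49 are δ-cells, so these values describe the contrast between types.

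Within δ-cells all 6 genes had a UMI in 10 of the 112 cells, 5 in 22, 4 in 34, 3 in 21, 2 in 13, 1 in 7 and none in 5. Of the 5796 other endocrine cells 28 had 4 of the genes, 2 had 5 and 1 had 6, and 2452 had none. Depth moved with the number, with a median of 16993 UMIs in the δ-cells with none of the genes and 56147 in those with 5. Spearman's rho between a gene's UMIs and the cell's depth lay between 0.24 for CSGALNACT1 and 0.53 for ANK3 (112 cells, no test).

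Pairwise correlation of log2(CPM/10 + 1) over the 112 δ-cells was weak. Pearson's r over the 15 pairs had a median of 0.12 and ranged from -0.036 (ANK3 and PROCR) to 0.25 (HHEX and ANK3), and 14 pairs were positive. Cells of a library share depth and animal, and with values centred within each monkey the median was 0.06 with 11 positive pairs. HHEX and ANK3 were then at 0.11. Without young male 3 the median fell to 0.03, between -0.16 and 0.17, with 8 of 15 pairs positive, whereas leaving out any of the other 14 monkeys gave medians of 0.11 to 0.14 with 12 to 15 positive pairs. In counts this sparse, correlations of this size are no finding. Cells with a UMI of both genes outnumbered the number under independence in each pair, also with cells thinned to equal depth. They were 79 against 73.9 for HHEX and ANK3 (thinned, 60 against 55.6). For SLC10A4 and PROCR they were 25 against 17.7 (15 against 10.8), and for EHF and PROCR 31 against 29.9 (17 against 16.3). These counts pool the monkeys and were not tested.

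**Figure D4:**
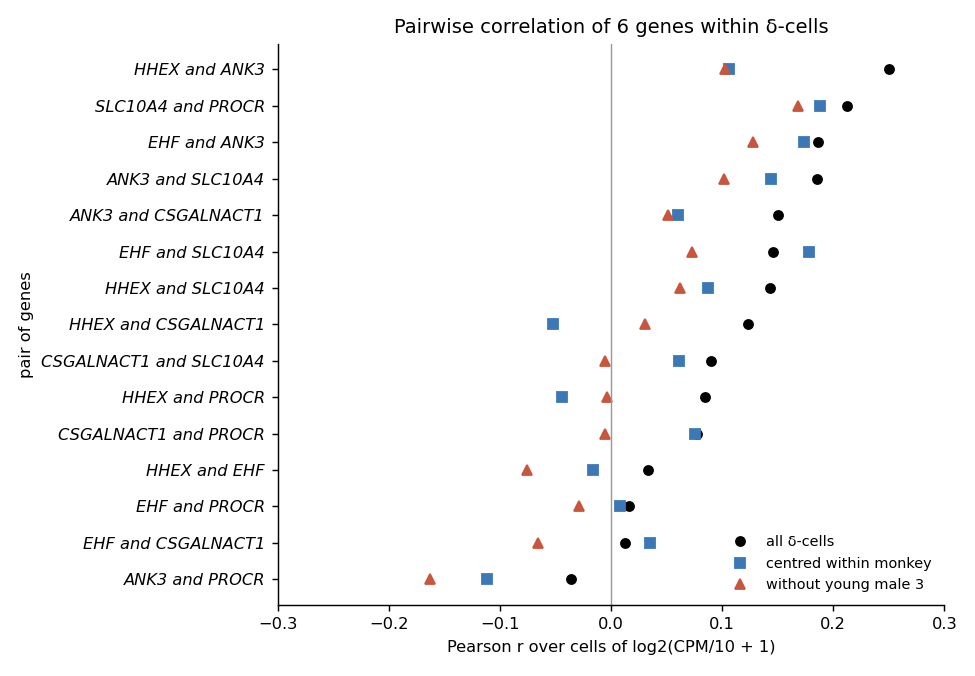
Pearson's r (horizontal axis) of log2(CPM/10 + 1) for the 15 pairs of genes (vertical axis) over 112 δ-cells (black circles), after centring within each monkey (blue squares) and without young male 3 (red triangles). Circles lie between -0.036 and 0.25, and the triangles, with a median of 0.03, fall on both sides of 0.

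Young male 3 stood apart among the donors of δ-cells. Its 14 δ-cells had the lowest median depth of the monkeys with at least 5, 24390.5 UMIs, and a median of 1 of the 6 genes with a UMI, against 3 to 4 in the other 10. It held 10 of the 24 δ-cells without a HHEX UMI. Its HHEX was the lowest (60.9 CPM) and its EHF the highest (394 CPM) of the 11. The 24 δ-cells without HHEX had a median depth of 24390.5 UMIs against 46943 in the 88 with it, a median SST of 103609 against 90357 CPM, and a median RBP4 of 891 against 6637 CPM, with an RBP4 UMI in 17 of the 24.

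Young and old monkeys were compared in δ-cells, where 7 young and 4 old monkeys had at least 5 cells. Old monkeys' δ-cells were also the deeper ones, with medians of 43675 to 64022.5 UMIs per monkey against 24390.5 to 50020 in young ones. For CSGALNACT1 the value with cells thinned to equal depth is given beside the main one. The δ-cell label markers SST, HHEX, RBP4, LEPR, GHSR and BCHE, which share only HHEX with the genes followed here, were also summed. Their sum, mostly SST, ran from 84629 to 108597 CPM in old and from 102486 to 136065 CPM in young monkeys. That of the 7 ductal markers ran from 36.3 to 366 CPM in old and from 110 to 277 CPM in young monkeys.

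HHEX in old monkeys was at 844 CPM in old female 1, 320 in old female 2, 328 in old male 2 and 515 in old male 4, and in young monkeys it ran from 60.9 to 487 CPM with a median of 289. Old female 1 and old male 4 exceeded each of the 7 young monkeys and the others lay within the young range. On summed UMIs old female 1 was at 546 and old male 4 at 480 CPM, against 539 in young female 3. For CSGALNACT1 the old monkeys had 672, 536, 312 and 50.1 CPM in the same order, and the young ran from 5.71 to 206 CPM with a median of 55.2. On summed UMIs the old monkeys were at 359, 303, 223 and 62.3 CPM, and the young ran from 7.87 to 198 CPM. Here 3 of 4 old monkeys were above every young one and old male 4 was not. Among the monkeys left out with fewer than 5 δ-cells, old female 4 was at 0 CPM in 4 cells, below every young monkey. Old male 1 was at 255, old male 3 at 381 and young male 4 at 8.02 CPM.

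EHF was at 333, 86.8, 342 and 359 CPM in the 4 old monkeys and between 145 and 394 CPM (median 272) in young ones. ANK3 was at 725, 285, 802 and 501 CPM in old monkeys against 145 to 500 CPM (median 328). For EHF 3 of 4 old monkeys lay within the young range and old female 2 below it. For ANK3 3 of 4 lay above each of the 7 young monkeys, old male 4 only just (501.3 against 500.2 CPM). Old female 2 was within the young range. Young male 4, left out with 2 δ-cells, had ANK3 at 1052 CPM. SLC10A4 was at 131, 218, 56.9 and 167 CPM against 14.1 to 173 CPM in young ones, and PROCR at 116, 97.4, 152 and 46.8 CPM against 15.4 to 151 CPM, again with overlap.

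None of the 6 genes was called. edgeR's test with sex and age in the model, adjusted over 6484 genes, called none of them (0%), with 209 genes at an unadjusted p under 0.05, and DESeq2 called 3 of its genes, none of them among the 6. CSGALNACT1 had the largest log2 fold change, 1.67 ± 0.65 (SE, unadjusted p = 0.0161, adjusted p = 0.9997, edgeR), and its mean was 393 ± 272 CPM in old and 88.4 ± 78.7 CPM in young monkeys. Over 24 alternatives it ran from 0.77 with cells of over 2000 genes and over 20000 UMIs alone (edgeR unadjusted p = 0.264) to 2.64 with the replicate block (p = 0.00171), and no adjusted p was below 0.768. It was 1.20 without old female 1 (p = 0.0765), 2.26 without old male 4 (p = 0.00132) and 2.32 with cells thinned to equal depth (p = 0.00156, edgeR). ANK3 followed with 0.55 ± 0.39, PROCR with 0.46 ± 0.79, HHEX with 0.45 ± 0.41, SLC10A4 with 0.38 ± 0.61 and EHF with -0.21 ± 0.46. HHEX ran from 0.21 without young male 3 to 0.96 on mean log2(CPM/10 + 1). With cells thinned to equal depth it was 0.81 (edgeR unadjusted p = 0.0657) and ANK3 was 0.78 (p = 0.0555). SLC10A4 was then 0.49 and EHF -0.26, and PROCR was not tested. The median over the 6 genes in the main fit was 0.46 beside 0.02 over all genes tested. On mean log2(CPM/10 + 1) per monkey the exact permutation test (two-sided) gave p between 0.103 for CSGALNACT1 and 0.582 for PROCR.

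**Figure D5:**
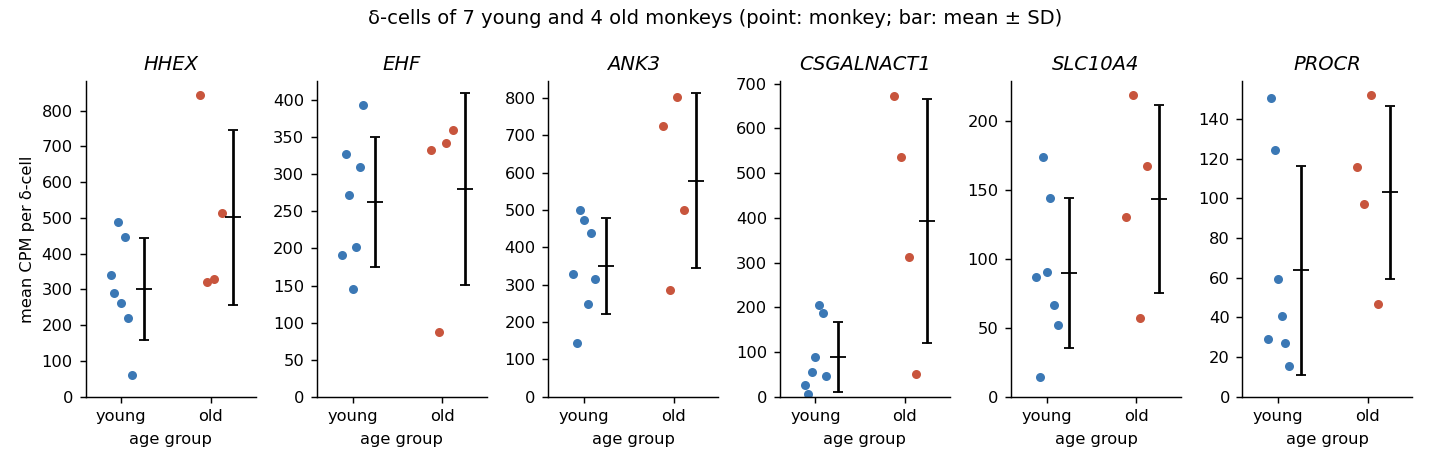
Mean CPM per δ-cell (vertical axis, linear, scaled per gene) of the 6 genes in 7 young and 4 old monkeys (points), with the mean and SD of each age group as bars. Young and old ranges overlap for each gene, and for CSGALNACT1 3 of 4 old monkeys lie above the highest young value of 206 CPM.

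In α-cells, with 8 young and 8 old monkeys, edgeR called 0 of 12916 genes (0%) with age, 886 of them at an unadjusted p under 0.05, while DESeq2 called 33. EHF in α-cells ran from 17.5 to 42.1 CPM (median 27.8) in young and from 27.4 to 52.2 CPM (median 39.0) in old monkeys, with means of 28.3 ± 8.98 and 37.5 ± 8.31 CPM (SD, n = 8 each). Its log2 fold change was 0.49 ± 0.16 (SE, edgeR unadjusted p = 0.00586, adjusted p = 0.689), and the exact permutation test over monkeys (two-sided) gave p = 0.0087. With cells thinned to equal depth the log2 fold change was 0.29 (edgeR unadjusted p = 0.113). The ranges overlapped between 27.4 and 42.1 CPM. HHEX (-0.94 ± 1.11), PROCR (0.34 ± 0.38) and ANK3 (-0.20 ± 0.51) differed by less than their errors.

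In β-cells edgeR called 5 of 10628 genes with age (0.047%, with 0.0376% higher and 0.00941% lower in old monkeys), none of them among the 6, and DESeq2 called 40, also none of the 6. EHF was at 8.37 ± 4.81 CPM in old and 4.87 ± 4.09 CPM in young monkeys (SD, n = 8 each), a log2 fold change of 1.17 ± 0.55 (SE, edgeR unadjusted p = 0.0448, adjusted p = 0.884). PROCR was at 5.49 ± 5.19 and 2.62 ± 1.60 CPM, a log2 fold change of 1.52 ± 0.66 (unadjusted p = 0.0306, adjusted p = 0.870, edgeR), and the old mean included 17.3 CPM in old male 3. ANK3 had a log2 fold change of 0.32 ± 0.50. The age effect in α-cells did not differ from that in β-cells for EHF, PROCR or ANK3 at the threshold (edgeR interaction, PROCR with the smallest unadjusted p = 0.117, 0% of genes called), nor that in δ-cells from that in α-cells for any of the 6 genes (edgeR, EHF with the smallest unadjusted p = 0.292, 0.0092% of genes called).

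Sex gave no call among the 6 genes in α-, β- or δ-cells (edgeR, 0% of genes called in each type, with 753, 424 and 211 genes at an unadjusted p under 0.05). EHF in β-cells had the smallest p, with males above females by 1.88 ± 0.56 on the log2 scale (SE, edgeR unadjusted p = 0.00252, adjusted p = 1.00). In δ-cells the difference in the age effect on CSGALNACT1 between the sexes was -3.38 ± 1.10 and not called (males minus females, log2 scale, SE, edgeR unadjusted p = 0.0045, adjusted p = 0.9999). Old females had 672 and 536 CPM and young females 5.71 to 89.3 CPM, while old males had 312 and 50.1 CPM and young males 47.2 to 206 CPM. Old female 4, left out of this fit with 4 δ-cells, had no CSGALNACT1 UMI. Old male 1 and old male 3, also left out, were at 255 and 381 CPM. The age effects of HHEX, EHF, ANK3 and PROCR in α-cells were not called as different between the sexes (edgeR, 0.00774% of genes called, none of them a member), and the smallest p was that of ANK3 (unadjusted p = 0.0326). None of the listed relatives of these genes was called with age in α-, β- or δ-cells by edgeR. In δ-cells the median log2 fold change was -0.28 over 14 genes of the δ-cell programme, -0.38 over 5 HHEX partners, -0.21 over 7 ETS factors, 0.33 over 12 ankyrin and spectrin genes, -0.06 over 6 chondroitin genes, 0.64 over 3 transporters and 0.04 over 2 protein C genes, beside 0.02 over all genes.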

How the data were processed

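UMI counts per gene and cell, deposited by the authors for 64 libraries of 16 monkeys, were used as counts. Per the labels and the study's methods, reads were demultiplexed with CASAVA 1.8, aligned to Macaca_fascicularis_5.0 with TopHat 2.0.12 and counted with htseq-count. The 95 spike-in rows were left out. The study's filter on mapping rate was not applied here. Retained UMIs per monkey came to 20.7 to 34.1 in units of 1000000. Doublets were not called. Counts were summed per monkey and type (at least 5 cells). The test was edgeR's (version 4.0.16, R version 4.3.3, quasi-likelihood, TMM, low-count filter, Benjamini-Hochberg threshold 0.05), with sex and age, or monkey and type, in the model, tested on simulated data. DESeq2 1.42.0, other filters and each monkey left out were alternatives. Other steps ran in Python 3.11.15 with pandas 2.3.3, scipy 1.17.1, matplotlib 3.10.9 and numpy 2.4.6. The members and gene lists were chosen with earlier results of these data known. Genes named were the 6 members, the 3 genes most alike to each and, from each list, at most 5 called genes per direction. Further relatives were named after their values were seen.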

Additional observations from a re-analysis of the deposited data

Results flagged for a closer look

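Each gene's mean CPM per monkey was screened within each age group and cell type for a monkey far from the others (Dixon's criterion, groups of 4 to 10). Of 36 groups 7 held such a monkey. The criterion's rate of about 1 in 20 is for independent, normally distributed values. These groups share monkeys and several of the means rest on few UMIs, so the count is not read against that rate. In δ-cells EHF was at 86.8 CPM in old female 2, with the nearest of the 4 old monkeys at 333 CPM. In α-cells CSGALNACT1 was at 5.30 CPM in old female 2, against at most 1.85 CPM in the other old monkeys.

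The other 5 were in β-cells. HHEX was at 13.6 CPM in young female 3 (15 UMIs in 28 cells), against at most 2.13 CPM in the other young monkeys. CSGALNACT1 was at 2.61 CPM in young male 1 (next 0.720 CPM) and at 10.6 CPM in old female 2 (next 1.75 CPM). SLC10A4 was at 2.72 CPM in young male 3, from 4 UMIs (next 0.435 CPM). PROCR was at 17.3 CPM in old male 3, from 159 UMIs in 75 cells (next 7.19 CPM).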

How the results depend on the processing

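No age effect on the 6 genes was called by edgeR or DESeq2 in α-, β- or δ-cells under any alternative, and the small δ-cell numbers (5 to 14 per monkey) limit these values. Some uncalled age effects changed sign (log2 fold changes). In δ-cells PROCR was -0.31 without cells over 1000 CPM of other cells' markers and -0.31 without old male 2, ANK3 -0.0879 with at least 8 cells per monkey, SLC10A4 -0.0682 and EHF 0.0410 without old female 2, and EHF 0.0202 without young male 3 and 0.36 on mean log2(CPM/10 + 1). In α-cells HHEX was 0.0929 and ANK3 0.0427 with no sex term, and ANK3 0.0396 without old male 3. With 1 monkey left out the δ-cell ranges were -0.77 to 0.0410 for EHF, -0.0682 to 0.72 for SLC10A4 and -0.31 to 0.95 for PROCR, and ANK3 in α-cells ran from -0.50 to 0.0396. By the exact permutation test 1 gene, EHF, passed 0.05 in α-cells (difference 0.26, p = 0.0087) and 1, EHF, in β-cells (0.23, p = 0.0376). The median log2 difference of δ-cells over other types, 2.26, was 3.34 with summed counts and 2.14 to 2.35 with 1 monkey left out. The median co-expression r, 0.12, was 0.0302 (without young male 3) to 0.14 with 1 monkey left out, an alternative chosen after seeing the data. Causes were not tested. Over all genes, age calls in δ-cells were 0 by edgeR, 3 by DESeq2, 3 with no filter and 3 with at least 8 cells per monkey, in α-cells 0 and 33 by DESeq2, and in β-cells 5, 40 by DESeq2, 21 with no filter, 3 without cells above the 95th percentile of UMIs, 1 with thinned cells and 2 to 8 with 1 monkey left out (2 without young male 1 or 2). EHF in α-cells was 0.29 with thinned cells (edgeR p = 0.113). Same-numbered monkeys did not deviate together (r -0.05 to 0.17 over 8 pairs), so numbers pair nothing. With the replicate block no member was called with age (0 in each type), CSGALNACT1 in δ-cells was 2.64 and ANK3 in β-cells -0.0161, and without the monkey as a block 3 members were still called between α- and β-cells.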
